A study of Mus musculus with 42 samples.

Results

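Rprm, Sla, Trbv1 and Olfm3 were described here as 4 genes proposed to mark layer 6 corticothalamic cells, out of 12393 genes with a probe set of a single gene symbol. The 4 were named for their levels in the CT6-CingulateCortex arrays, so those levels are given as a description and carry no test. Low levels in other groups may have been part of that naming. Comparisons against such groups, and their p-values, may therefore not be free of it. Each gene was read from its brightest probe set, and all 4 were among the 9295 genes bright enough to be tested. On these probe sets Rprm, Sla and Trbv1 had their highest mean in CT6-CingulateCortex, the group for which they were named. On the dimmer probe set of Sla that group ranked 3. Olfm3 ranked 4 of 14 there, behind 3 groups of interneurons. Rprm was also high in 1 of the amygdala groups.

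The measurements came from 42 Affymetrix arrays that take 1 RNA sample each, split over 14 groups of adult mouse forebrain cells with 3 arrays in each. The labels state that the replicates of a type came from different animals. In 12 groups, fluorescent neurons were picked by hand from dissociated slices, 27 to 120 cells for each array, and their RNA was amplified before labelling. Some of these arrays are labelled with a range of ages and may stand for pooled animals. CT6-CingulateCortex held layer 6 pyramidal neurons of C57BL/6j mice aged 74 to 82 days, marked by beads placed in the medial dorsal thalamus. YFPH mice, mixed with C57BL/6j, carry YFP under the Thy1 promoter. They gave layer 5 pyramidal neurons of cingulate cortex (65 and 80 days, with no age given for replicate 3) and somatosensory cortex (65 to 86 days), hippocampal pyramidal neurons (91 days or older) and amygdala neurons whose class the labels do not state (91 days or older). GIN mice, with GFP under a Gad1 promoter, gave somatostatin interneurons of hippocampus (63 to 74 days) and cingulate cortex (63 to 78 days). G42 mice gave parvalbumin interneurons of cingulate cortex (65 to 79 days) and interneurons of the lateral geniculate nucleus, LGN (60 to 66 days). G30 mice, whose promoter the labels do not name, gave interneurons of cingulate cortex (57 to 68 days) and somatosensory cortex (57 to 69 days) and amygdala neurons of unstated class (60 to 79 days). GIN-Homogenate-CingulateCortex and G42-Homogenate-CingulateCortex were unsorted cingulate cortex of GIN and G42 mice. All mice of the sorted groups were labelled male.

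Corticothalamic neurons sit in cortical layer 6 and send axons back to the thalamus, where they adjust the relay of signals to the cortex. Their fate depends on transcription factors such as TBR1, which represses the programme of neurons that project below the thalamus. Rprm encodes reprimo, known as a p53-induced gene that can halt the cell cycle, and it is used as a marker of layer 6 in mouse cortex. Sla encodes the Src-like adaptor protein, which dampens signalling through the T cell receptor. Trbv1 is a variable segment of the T cell receptor beta locus, which T cells rearrange. Olfm3 encodes a secreted olfactomedin-domain glycoprotein, also called noelin 3 or optimedin, which is found with AMPA receptors at synapses.

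Levels are the deposited linear intensities, and differences are in log2 of the intensity plus 16, written as the first group minus the second with a standard error (SE) pooled over the 14 groups. A gene was called where its limma p, adjusted by Benjamini-Hochberg over the 9295 tested genes, was under 0.05. Array medians lay between 285.8 and 330.4, and no pair of arrays held identical values. Of the 12 YFPH arrays, 10 were scanned in the first of 3 scan years, and 0 of the 30 others were. Replicate 1 of YFPH-Hippocampus and replicate 2 of YFPH-Amygdala were marked in their array records as abnormally amplified. Each level is that of a pool of cells, so fewer cells with a transcript and less of it in each cell cannot be told apart. Precision is limited by having 3 arrays in a group.

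The promoters of Rprm and Olfm3 are printed to show the sequence at the start of genes whose levels changed widely over the groups. In the set of promoter sequences used, on the GRCm38.p6 build, 2 of the 4 genes were found, Rprm and Olfm3, and Sla and Trbv1 were not. Each window runs from 250 bases before to 50 after the annotated start, with the 5′ end first. Capitals mark matches to the core sites searched on both strands. These were TCACAC or GTGTGA, the core bound by T-box factors such as TBR1, and ACAAT or ATTGT, the core bound by SOX factors such as SOX5. The letters of one search do not overlap those of the other.
Rprm, chr2:54085503-54085802, minus strand: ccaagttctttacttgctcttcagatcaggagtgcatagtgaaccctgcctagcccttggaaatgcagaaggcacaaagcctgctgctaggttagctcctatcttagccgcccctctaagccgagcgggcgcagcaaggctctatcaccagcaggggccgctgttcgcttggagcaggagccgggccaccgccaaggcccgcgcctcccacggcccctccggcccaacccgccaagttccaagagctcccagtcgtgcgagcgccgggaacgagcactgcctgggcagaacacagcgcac
Olfm3, first start, chr3:114903828-114904127, plus strand: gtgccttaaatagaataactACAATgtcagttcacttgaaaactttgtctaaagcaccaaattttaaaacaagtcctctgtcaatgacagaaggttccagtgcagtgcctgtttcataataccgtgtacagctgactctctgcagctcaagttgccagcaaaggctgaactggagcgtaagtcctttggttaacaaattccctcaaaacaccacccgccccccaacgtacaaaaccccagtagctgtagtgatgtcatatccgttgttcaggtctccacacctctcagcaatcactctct
Olfm3, other start, chr3:115080715-115081014, plus strand: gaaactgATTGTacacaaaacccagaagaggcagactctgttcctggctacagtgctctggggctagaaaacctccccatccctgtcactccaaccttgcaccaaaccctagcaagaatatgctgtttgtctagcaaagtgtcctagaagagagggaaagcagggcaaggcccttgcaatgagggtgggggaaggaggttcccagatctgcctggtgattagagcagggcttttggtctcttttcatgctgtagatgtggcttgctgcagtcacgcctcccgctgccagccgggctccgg

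The Rprm window was rich in G and C, at 63.3%, with 19 CpG pairs, against medians of 52.7% and 7 over all 32851 promoters of that set. The Olfm3 windows held 44.7% and 54.3% G and C, with 5 and 4 CpG pairs. No T-box core was found in any of the 3 windows, and 14.5% of all promoters held one. The SOX core was found once in each Olfm3 window and not in that of Rprm, and 31.0% of all promoters held one. These are letter matches and no measure of binding.

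Rprm was abundant in layer 6 cells and in the G30 amygdala neurons, intermediate in unsorted cortex, hippocampal pyramidal neurons and YFPH amygdala neurons, and low in layer 5 cells and in each of the 6 interneuron groups. The CT6-CingulateCortex arrays read 4231, 5343 and 4845, a mean of log2 12.23 ± 0.17 (SD, n = 3). The G30-Amygdala arrays read 4149, 3844 and 3588, or log2 11.92 ± 0.10. Their highest array lay just under the lowest layer 6 array, so the groups did not overlap, and their means were 0.31 apart.

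Next came G42-Homogenate-CingulateCortex at 1711, 2918 and 1463 and GIN-Homogenate-CingulateCortex at 1498, 1079.7 and 903, which overlapped. The YFPH-Hippocampus arrays read 898, 1075 and 883, and the YFPH-Amygdala arrays 987, 1190.4 and 665. These neighbours overlapped too, with means of log2 9.91 ± 0.15 and 9.87 ± 0.42. Below them was a gap of 2.26 on the log2 scale. The 8 remaining groups lay between log2 6.90 in G42-CingulateCortex and log2 7.61 in G30-SomatosensoryCortex, and none of their arrays passed 233.

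Rprm was higher in hippocampal than in layer 5 cingulate neurons of the YFPH line, in a comparison without the corticothalamic arrays. A low level in these cingulate neurons may itself have been part of naming Rprm as a marker. The p-values against them may therefore not be free of that choice. Arrays of YFPH-CingulateCortex read 169, 170.2 and 127, all far under those of hippocampus, and the difference was 2.50 ± 0.19 (SE; 5.67-fold; adjusted p = 1.26e-11), where 10.1% of tested genes were called. The YFPH-Amygdala arrays stood apart from the same cingulate arrays by 2.46 ± 0.19 (adjusted p = 2.01e-11), with 6.83% of genes called. Both groups came from older mice than the 2 cingulate arrays with a stated age, and neither shared a scan day with the cingulate arrays. Age, scan day and region therefore cannot be told apart. These comparisons share the cingulate arrays. Between somatosensory and cingulate layer 5 neurons the Rprm difference was -0.01, with a 95% interval from -0.40 to 0.39.

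Among the tested comparisons, Rprm differed most between G30 neurons of amygdala and of cingulate cortex. The G30-CingulateCortex arrays read 122, 149.6 and 136, against a lowest amygdala array of 3588. The difference was 4.67 ± 0.19, or 25.5-fold (adjusted p = 2.77e-19), in a comparison that called 25.1% of genes. The smallest value over 17 other ways of processing was 4.29. The G30 amygdala and cingulate arrays shared no scan day, and G30-Amygdala replicates 2 and 3 were the only arrays of the third scan year. The cells compared were unlike in class. Over the G30-Amygdala arrays, Gad1, which makes GABA, read 66.4, 594.4 and 379.1, against 4012 to 4892 in G30-CingulateCortex, and all 4 tested glutamatergic genes were called higher in amygdala. The part of this change of class, or of scan day, in the Rprm difference was not tested.

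Rprm also separated the amygdala populations from each other. YFPH-Amygdala was lower than G30-Amygdala, with a difference of -2.05 ± 0.19 (4.13-fold, adjusted p = 1.79e-09), and no arrays overlapped. This comparison called 17.4% of genes. The difference ran from -2.34, with scan year as a block, to -1.82 over 17 other ways of processing, all of which kept the call. These groups shared no scan year, so the block took the offset of the first year from the YFPH cortical groups. It cannot test a year effect in the amygdala cells, and with it 144 genes were called, against 1615. The YFPH-Amygdala mice were also older than the G30-Amygdala mice. The part of scan year or age in the difference was not tested. The leukocyte gene Ptprc, singled out after its values were seen, read 1588.8 to 2282.5 in YFPH-Amygdala and 32.9 to 54.5 in G30-Amygdala. Ptprc lay under the filter on low means and was not tested. Of the 11 measured T cell markers that include it, 7 others were tested. Of these 7, 0 were called between these groups by limma, with 0 at an unadjusted p under 0.05, a count that cannot register Ptprc. The part of Ptprc-expressing cells in the difference was not tested. The rise from cingulate cortex to amygdala was smaller in the YFPH line than in the G30 line (interaction -2.21 ± 0.28, adjusted p = 2.24e-07), a term that was called for 11.7% of genes.

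Rprm was low in the 6 interneuron groups, and 4 pairs of them that share a line or an area were compared. It differed by 0.17 between hippocampal and cingulate GIN cells (95% interval -0.22 to 0.57), where 18.4% of genes were called. It differed by 0.16 between geniculate and cingulate G42 cells (-0.23 to 0.56), where 26.3% were called. Between cingulate GIN and G42 cells the difference was 0.06 (-0.33 to 0.46), with 29.4% called. Between G30 cells of somatosensory and cingulate cortex it was 0.37 (-0.03 to 0.76), with 0.183% called. None of these 4 differences passed the test, and the intervals leave changes of up to 0.76 possible.

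**Figure D1:**
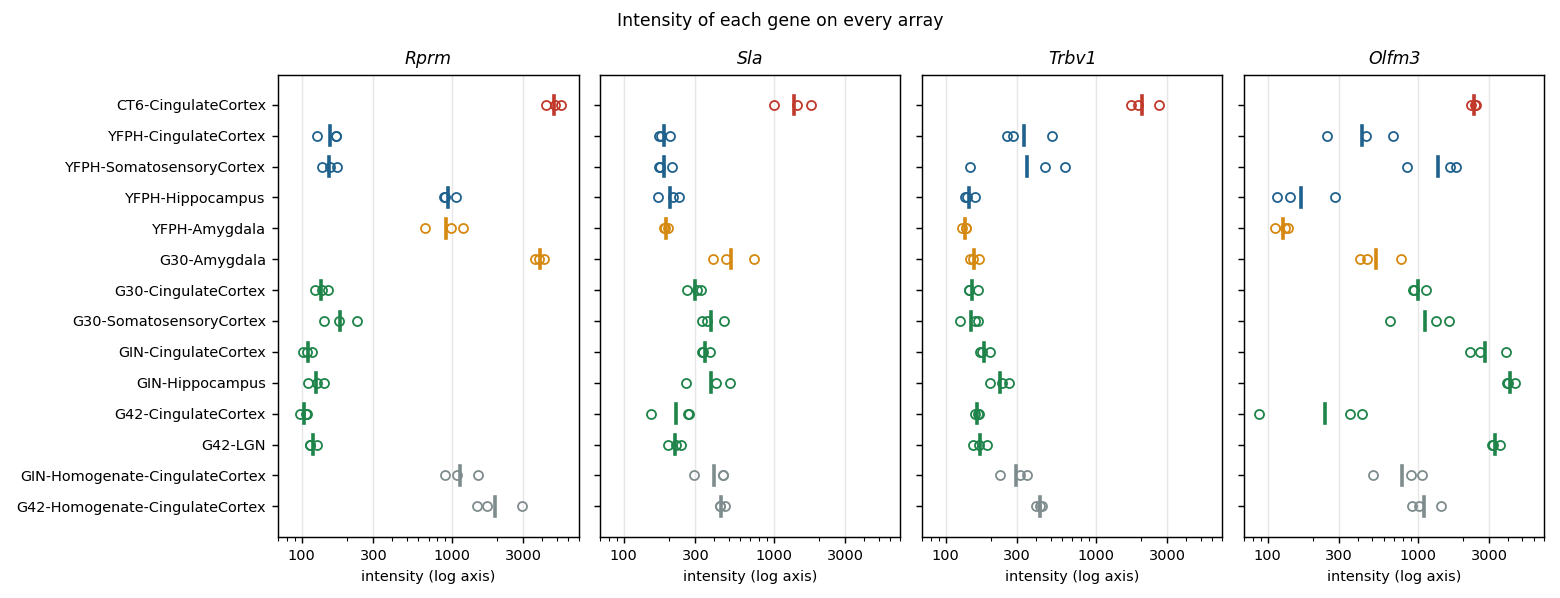
Intensity on every array (horizontal log axis) of Rprm, Sla, Trbv1 and Olfm3 in the 14 groups (rows); open circles are arrays and the vertical mark is the group's mean of log2(intensity + 16), turned back to intensity. Rprm is high in CT6-CingulateCortex and G30-Amygdala, Sla and Trbv1 peak in CT6-CingulateCortex, and Olfm3 is higher in GIN-Hippocampus, G42-LGN and GIN-CingulateCortex than in CT6-CingulateCortex.

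Sla, the adaptor that restrains T cell receptor signalling, was highest in layer 6 cells, at 1434, 1763 and 998 (log2 10.43 ± 0.41, n = 3). The G30-Amygdala arrays followed at 742, 484 and 396 (log2 9.07 ± 0.45). All layer 6 arrays lay above them, and the gap between the means was 1.35. From G30-Amygdala down, neighbours in the order overlapped, except that all GIN-CingulateCortex arrays lay above those of G30-CingulateCortex. The unsorted groups had means of log2 8.86 and 8.69, G30-SomatosensoryCortex and GIN-Hippocampus 8.64 and 8.63, and GIN-CingulateCortex 8.51. G30-CingulateCortex stood at 8.30, and the G42 groups at 7.91 and 7.88. The 4 YFPH groups were lowest, from 7.65 to 7.78, and no YFPH array passed 234.

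Sla rose in G30 neurons of amygdala against those of cingulate cortex, which read 309, 264 and 328. The difference was 0.77 ± 0.22 (1.71-fold, adjusted p = 0.00707), and the arrays did not overlap. Without the highest G30-Amygdala array, replicate 1, it was 0.53 and did not pass (adjusted p = 0.0831). YFPH amygdala neurons, at 196, 188 and 186, were lower than G30 amygdala neurons (difference -1.39 ± 0.22, adjusted p = 2.08e-05). Within the YFPH line, amygdala and cingulate cortex differed by 0.04 (95% interval -0.40 to 0.48).

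Among cingulate interneurons, Sla was higher in GIN cells, at 379, 333 and 337, than in G42 cells, at 274, 269 and 153. The arrays did not overlap, and the difference of 0.60 ± 0.22 just passed (adjusted p = 0.0339). The adjusted p ran from 0.0224 to 0.276 over 16 other ways of processing this probe set, 7 of which lost the call. No call was made for Sla between YFPH hippocampus and cingulate cortex (0.13, 95% interval -0.31 to 0.57) or between geniculate and cingulate G42 cells (-0.03, -0.47 to 0.41).

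The probe sets of Sla did not agree. The dimmer one, 1420818_at, read between 210.3 and 316 on all 42 arrays, and its group means spanned 0.38 on the log2 scale, against 2.78 for 1420819_at. CT6-CingulateCortex ranked 3 on it. Over the 14 group means the probe sets had a Pearson r of 0.589, given as a description. Read from the dimmer probe set, Sla differed by -0.03 between G30 amygdala and cingulate neurons (adjusted p = 0.837) and by 0.21 between layer 6 and the other pyramidal groups. The Sla calls between G30 amygdala and cingulate cortex, between the amygdala groups, between GIN and G42 cells and in unsorted cortex were made on 1420819_at alone.

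Trbv1, a segment of the T cell receptor beta locus, was also highest in layer 6 cells, where the arrays read 1909, 2626 and 1714 (log2 11.01 ± 0.32, n = 3). The next group, G42-Homogenate-CingulateCortex, read 425, 440.0 and 403 (log2 8.78 ± 0.06). The gap between these neighbours was 2.23, far over the spread of either. YFPH-SomatosensoryCortex read 146, 621 and 456, and YFPH-CingulateCortex 279, 512 and 258. Both layer 5 groups varied widely among their arrays, with SDs of 1.04 and 0.52, and overlapped each other and the unsorted groups. GIN-Homogenate-CingulateCortex stood at log2 8.27 ± 0.30. The remaining groups lay between 7.23 in YFPH-Amygdala and 7.95 in GIN-Hippocampus, and none of their arrays passed 265. Its only probe set, 1452205_x_at, is of the kind that Affymetrix marks with x for probes that may also bind related transcripts.

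Within the YFPH line, Trbv1 was lower in hippocampus and amygdala than in cingulate cortex. The hippocampal arrays read 139, 135 and 158, and all lay under the lowest cingulate array of 258. The difference was -1.13 ± 0.26 (2.19-fold lower, adjusted p = 0.00325), and without replicate 2 of YFPH-CingulateCortex it was -0.83 with an adjusted p of 0.0504. The amygdala arrays read 137, 137 and 129, and the difference was -1.22 ± 0.26 (adjusted p = 0.0017). Both comparisons share the variable cingulate arrays and the differences in age and scan day.

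Trbv1 differed between G30 amygdala and cingulate neurons by 0.05 (95% interval -0.48 to 0.58). The interaction of amygdala and line was -1.27 ± 0.37 (adjusted p = 0.0193), and the call was lost without replicate 2 of YFPH-CingulateCortex (adjusted p = 0.0879) or with scan year as a block (0.118). The amygdala populations differed by -0.19 (-0.72 to 0.34). Among the interneuron comparisons within a line or area, no Trbv1 difference passed the test.

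Genes of T cells were read beside Trbv1. They were the 11 measured of 13 T cell markers, among them the Cd3 chains of the receptor complex. Their summed intensity was 3631 to 3767 on the layer 6 arrays and 3325 to 3862 on those of YFPH-CingulateCortex. Zap70 alone gave 1140.7 to 1172.2 of it on the layer 6 arrays, and read 1032.62 to 1539.45 over all 42 arrays. A small T cell content may therefore not show in the sum. Of the 7 tested, 0 were called between layer 6 and the other pyramidal groups by limma, where 21.5% of all tested genes were, and 1 had an unadjusted p under 0.05. Of 3 other tested receptor segments, Trav9d-3 was called higher in layer 6, by 0.23 ± 0.08 (adjusted p = 0.038). Trbv13-2, another beta segment, differed by 0.11 ± 0.09 (adjusted p = 0.361) and stayed between 196 and 374 on all 42 arrays.

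**Figure D2:**
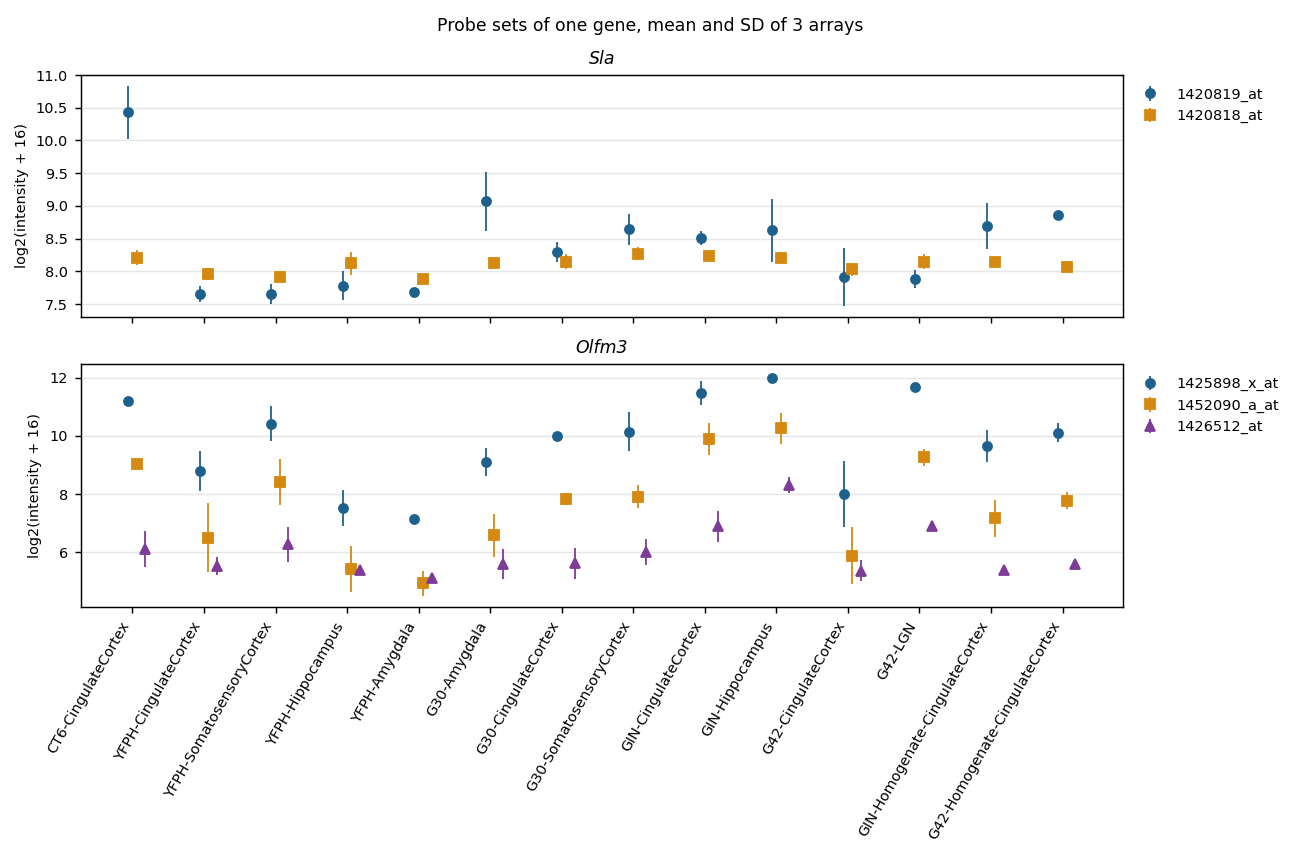
Mean and SD (3 arrays) of log2(intensity + 16) for each probe set of Sla (top) and Olfm3 (bottom) in the 14 groups. The peak of Sla in CT6-CingulateCortex is seen on 1420819_at and not on 1420818_at, whose group means span 0.38, while the probe sets of Olfm3 follow similar orders.

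Olfm3, the secreted synaptic glycoprotein, was a gene of particular interneurons at least as much as of layer 6. Its brightest probe set, 1425898_x_at, carries the same x mark as that of Trbv1 and may also bind related transcripts. The GIN-Hippocampus arrays read 3951, 3990.1 and 4438 (log2 12.01 ± 0.09, n = 3), the G42-LGN arrays 3187, 3549 and 3111 (11.69 ± 0.10), and the GIN-CingulateCortex arrays 2225, 2607 and 3881 (11.47 ± 0.41). CT6-CingulateCortex came after these, at 2435, 2259.7 and 2403 (11.22 ± 0.06). Its arrays lay under all of those of GIN-Hippocampus and G42-LGN and overlapped those of GIN-CingulateCortex.

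YFPH-SomatosensoryCortex read 847, 1653 and 1803 (log2 10.43 ± 0.59) and G30-SomatosensoryCortex 1619, 1329 and 656 (10.15 ± 0.67). The unsorted groups, at 10.12 and 9.64, and G30-CingulateCortex, at 9.99 ± 0.16, could not be ordered against these beyond their spread. G30-Amygdala stood at 9.09 ± 0.48 and YFPH-CingulateCortex at 8.79 ± 0.70. G42-CingulateCortex read 354, 87.3 and 424, and YFPH-Hippocampus 141, 115 and 283. YFPH-Amygdala was lowest, at 137, 129.6 and 112. The lowest groups were therefore parvalbumin interneurons of cortex and the YFPH neurons of hippocampus and amygdala.

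Olfm3 separated interneuron groups that shared a line or an area. It was higher in geniculate than in cingulate G42 cells by 3.68 ± 0.39 (12.8-fold, adjusted p = 4.05e-09), and the arrays lay far apart. In cingulate cortex it was higher in GIN than in G42 cells by 3.47 ± 0.39 (11.1-fold, adjusted p = 2.47e-08). These comparisons share the G42-CingulateCortex arrays, and leaving out each array in turn gave differences of 3.03 to 4.07 and of 2.82 to 3.86. Between hippocampal and cingulate GIN cells the difference of 0.54 did not pass (95% interval -0.26 to 1.34), although the arrays did not overlap.

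In the YFPH line, Olfm3 differed between regions with less certainty. It was higher in somatosensory than in cingulate layer 5 neurons, at 450, 684 and 251, by 1.64 ± 0.39 (3.11-fold, adjusted p = 0.0202), where 1.58% of genes were called. Of 18 other ways of processing this probe set, 7 lost the call, among them 4 of the 6 fits that left out 1 array. It was lost with scan day as a block (adjusted p = 0.522) and without replicate 3 of YFPH-CingulateCortex, the array of a new sorting method (1.27, adjusted p = 0.199), and on the 1 scan day with both groups the difference was 0.89. It was lower in hippocampus than in cingulate cortex by -1.28 ± 0.39 (adjusted p = 0.0316), with overlapping arrays, and 6 of 17 other ways of processing this probe set lost that call. It was lower in amygdala by -1.64 ± 0.39 (adjusted p = 0.00551), and without replicate 2 of YFPH-CingulateCortex the adjusted p was 0.0692.

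Between the amygdala populations, Olfm3 was lower in YFPH than in G30 neurons, which read 411, 778 and 461, by -1.94 ± 0.39 (adjusted p = 0.00067), and no arrays overlapped. With scan year, which these groups did not share, as a block the value was -1.93, with an adjusted p of 0.264. Between G30 amygdala and cingulate neurons it was -0.90 ± 0.39 and did not pass (adjusted p = 0.0911). The other probe sets of Olfm3, 1452090_a_at and 1426512_at, had a Pearson r of 0.989 and 0.823 with the brightest over the 14 group means, were highest in GIN-Hippocampus and placed CT6-CingulateCortex 4 and 5. On the dimmest, 1426512_at, the YFPH results were smaller and not called, at 0.75 (adjusted p = 0.347) for somatosensory and -0.41 (0.597) for amygdala against cingulate cortex, and at -0.51 (0.239) between the amygdala groups.

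**Figure D3:**
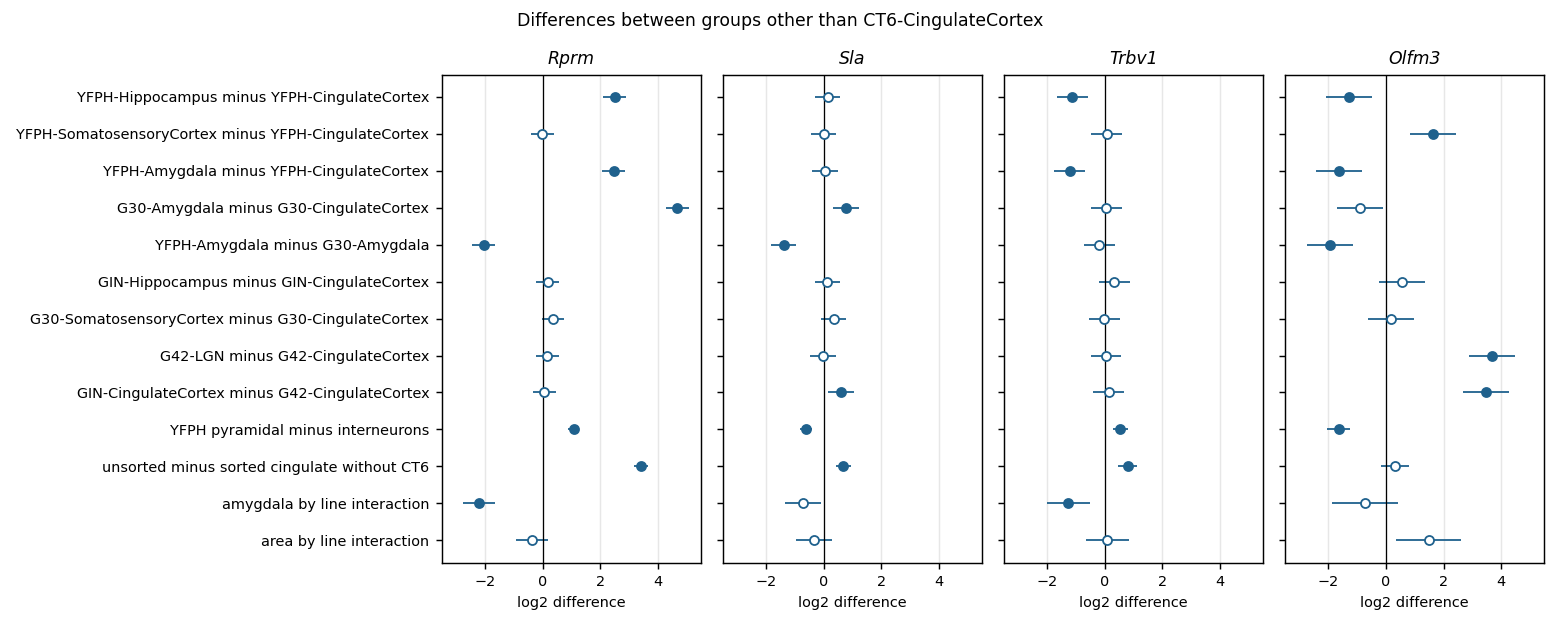
Log2 difference (horizontal axis) of each gene in 13 comparisons (rows) that do not use the CT6-CingulateCortex arrays; bars are 95% intervals from the limma fit, filled points have an adjusted p under 0.05 and open points do not. Rprm is displaced in the hippocampal, amygdala and unsorted comparisons, and Olfm3 in those of G42-LGN and GIN-CingulateCortex against G42-CingulateCortex.

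As a description of the choice itself, layer 6 cells exceeded the mean of the YFPH cingulate, somatosensory and hippocampal groups by 3.99 for Rprm, 2.92 for Trbv1, 2.74 for Sla and 2.31 for Olfm3, all on the log2 scale. In that comparison 21.5% of tested genes were called, and nothing is read from the members' own values. For all 4 genes the arrays of the groups did not overlap.

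Outside layer 6 the 4 genes followed different orders of groups. The group means over the 11 other sorted groups spanned 5.01 for Rprm, 4.86 for Olfm3, 1.43 for Sla and 1.28 for Trbv1 on the log2 scale, against a median span of 0.66 over all tested genes. All 4 were called in a moderated F test of these 11 groups, as were 79.5% of tested genes, so that the calls do not set them apart. Over the 13 groups without layer 6, Pearson r of the group means was 0.43 for Rprm and Sla, -0.43 for Rprm and Olfm3 and 0.39 for Sla and Olfm3. It was 0.28 for Trbv1 and Olfm3, and 0.07 for Trbv1 with Rprm and with Sla. Several groups share a mouse line, a brain area or a scan day, so these are descriptions. Over all 14 groups, r was -0.23 for Rprm and Olfm3.

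Across classes, the YFPH cortical and hippocampal groups were compared with the 6 interneuron groups, a comparison in which 51.9% of genes were called. Rprm was higher in the pyramidal groups by 1.09 ± 0.10 (adjusted p = 1.64e-11) and Trbv1 by 0.54 ± 0.13 (adjusted p = 0.000833). Sla differed by -0.62 ± 0.11 (adjusted p = 1.31e-05) and Olfm3 by -1.64 ± 0.20 (adjusted p = 1.43e-08). The arrays overlapped for each of the 4. The Rprm value came with a hippocampal mean of 9.91, whereas the cortical YFPH means of 7.41 and 7.40 lay within the interneuron range of 6.90 to 7.61. For Trbv1, the cortical YFPH means of 8.45 and 8.51 lay above the interneuron range of 7.35 to 7.95, and the hippocampal mean of 7.32 lay just under it. On 2 scan days that held a cortical pyramidal and an interneuron array, the Rprm differences were 0.05 and 0.12 and those of Trbv1 0.78 and 1.82. Those of Sla were -1.09 and -0.56. Olfm3 changed direction between the days, at -1.83 and 1.31. With scan year as a block, Sla did not pass (adjusted p = 0.145).

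Unsorted cingulate cortex holds every cell type of the area, layer 6 cells included. Against the mean of the sorted cingulate groups other than layer 6, Rprm was higher in unsorted cortex by 3.42 ± 0.12 (10.7-fold, adjusted p = 2.86e-22), where 43.4% of tested genes were called and 21.9% were called higher. The arrays did not overlap, and on each of 5 scan days that held both kinds of array the difference was positive, from 2.96 to 4.57. Trbv1 was higher by 0.79 ± 0.16 (adjusted p = 0.00012) and on 5 of 5 days, from 0.20 to 1.31. Sla was higher by 0.68 ± 0.13 (adjusted p = 6.66e-05) and on 4 of 5 days, from -0.34 to 0.67. For the latter genes the arrays overlapped. The genes may have been named partly for low levels in those sorted groups, so these p-values may not be free of that choice.

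Olfm3 was not called in that comparison (0.32 ± 0.24, adjusted p = 0.297). Its direction on single days followed the line, at 1.48 and 3.17 against G42 cells and at -2.11, -1.28 and -2.09 against GIN cells. Glial genes moved with the unsorted groups: the 8 astrocyte markers summed to 23678 to 32402 there and to 2684 to 9396 in the sorted cingulate groups without layer 6, and 5 of 5 tested microglial and 2 of 2 tested oligodendrocyte markers were called higher. The part of glial cells in the differences of the 4 genes was not tested.

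Other genes of layer 6 were read from a list of 12, of which 11 were measured and 10 tested. Between layer 6 and the other pyramidal groups 6 were called higher and 1 lower, with a median difference of 0.75 against 0.01 over all tested genes, where 10.9% were called higher and 10.6% lower. Tle4, a corepressor of transcription, was higher by 2.45 ± 0.16, and Tbr1, the T-box factor of this fate, by 1.71 ± 0.12. Zfpm2, a cofactor of GATA factors, was higher by 1.51 ± 0.11, and Ntsr1, the neurotensin receptor used to mark corticothalamic cells in mice, by 1.39 ± 0.11. All 4 had adjusted p values of 1.34e-11 or less. Fezf2, a factor of layer 5 projection neurons that is also made in layer 6, was called lower (-0.66 ± 0.23, adjusted p = 0.0403). Sox5, Grik3 and Crym differed by 0.03, 0.06 and 0.49 and were not called. Foxp2, a forkhead factor, was called higher (0.67 ± 0.10), but its layer 6 mean of log2 8.34 lay beside 8.31 in GIN-CingulateCortex. The layer 6 mean of Zfpm2, log2 10.19, likewise lay near 9.96 in G42-LGN, whose arrays overlapped it, and 9.76 in YFPH-Amygdala.

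In the same comparison, astrocyte genes were higher too. Of 6 tested, 3 were called, among them Glul, which makes glutamine (adjusted p = 5.06e-12), and Aldoc, a glycolytic enzyme (1.38 ± 0.27, adjusted p = 0.000295). The astrocyte sums were 6628 to 9521 on the layer 6 arrays and 1828 to 6508 on the arrays of the 3 YFPH groups, while Gfap and Slc1a3 differed by -0.02 and -0.03. The part of these genes in the layer 6 levels was not tested. The markers of interneurons were low on the layer 6 arrays, with a sum of 403 to 428 against 11862 or more in the sorted cingulate interneuron groups.

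Some genes of the layer 6 list were also called in the amygdala comparisons. Between G30 amygdala and cingulate neurons 4 of 10 were called, all higher, where 25.1% of tested genes were called. They were Crym, which binds thyroid hormone (5.21 ± 0.26), Fezf2 (2.66 ± 0.29), Tbr1 (1.01 ± 0.15) and Zfpm2 (0.80 ± 0.13). Tle4 and Ntsr1 differed by 0.13 and 0.07 and were not called. Between YFPH amygdala and cingulate neurons, where 3.73% of genes were called higher and 3.10% lower, 2 were called higher, Zfpm2 (0.88 ± 0.13) and Sox5, an SRY-related factor (0.33 ± 0.11). There, 3 were called lower, Crym (-1.12 ± 0.26), Fezf2 (-1.03 ± 0.29) and Ntsr1 (-0.59 ± 0.14). Crym and Fezf2 were thus called in opposite directions in the lines, against unlike cingulate cells. Their means were log2 6.44 and 7.34 in the G30-CingulateCortex interneurons and 12.6 and 11.66 in the YFPH-CingulateCortex layer 5 neurons. Between YFPH-Amygdala and G30-Amygdala they differed by -0.17 (adjusted p = 0.685) and 0.62 (adjusted p = 0.127) and were not called by limma. In unsorted cortex, which also held the glial genes given above, 8 of the 10 were called higher than in sorted cingulate cells, against 21.9% of all tested genes.

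**Figure D4:**
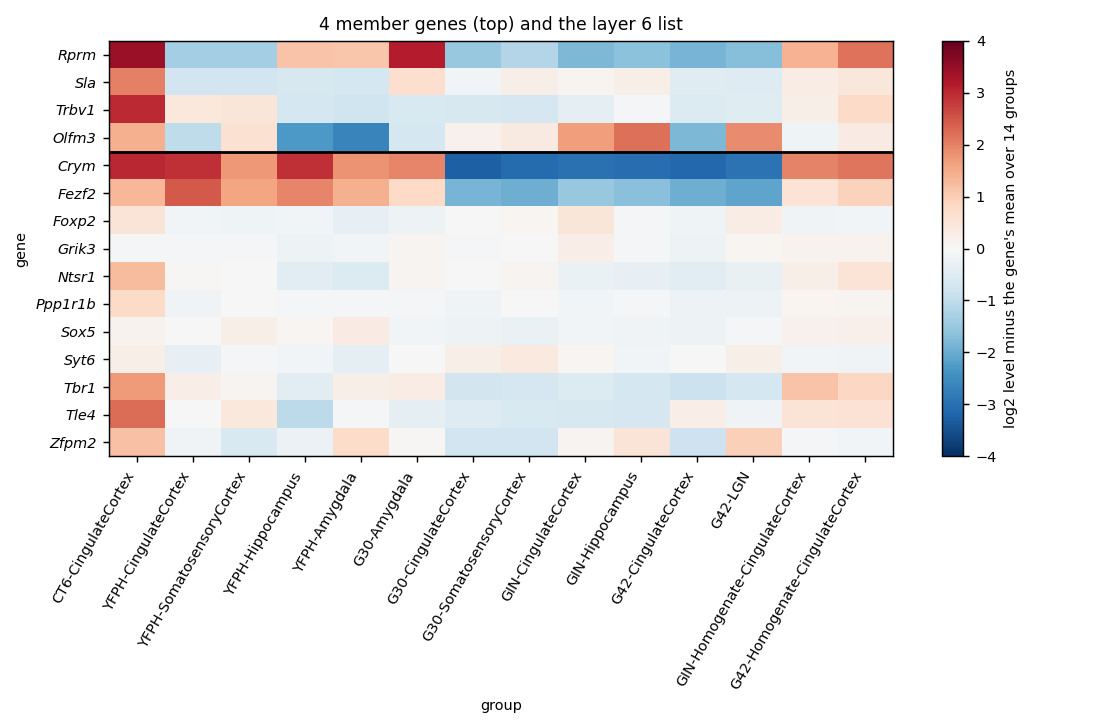
Group mean of log2(intensity + 16) minus the gene's own mean over the 14 groups (colour) for the 4 genes (above the line) and the 11 measured genes of the layer 6 list (below). Tle4 and Tbr1 share with Trbv1 and Sla a peak in CT6-CingulateCortex, while the high value of Rprm in G30-Amygdala is not seen for Tle4 or Ntsr1.

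Relatives and partners of the 4 genes were read from further lists in the comparison of layer 6 with the other pyramidal groups, which called 21.5% of all tested genes. Of 8 tested genes of the list of the Sla adaptor and its kinases, 0 were called by limma between layer 6 and the other pyramidal groups and 3 had an unadjusted p under 0.05. Sla2, the nearest relative of Sla, stood at log2 8.57 ± 0.10 in layer 6 and between 8.12 and 8.89 elsewhere. Of 3 tested genes of the p53 cell cycle list, Ccng1, cyclin G1, was called lower (-1.44 ± 0.15, adjusted p = 4.46e-09). Of 4 tested olfactomedin-domain genes and their latrophilin receptors, Olfm1 was called higher (0.52 ± 0.12, adjusted p = 0.00148) and Olfml3 lower (-1.24 ± 0.12, adjusted p = 5e-10). Adgrl1, which encodes latrophilin 1, differed by -0.03.

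The genes most like each member were found by Pearson r of group means. For Rprm, the leading gene over 14 groups was Slc35e1 (r = 0.954), with Ing2, Rab15, Cyth2 and Klf16 next. Over the 13 groups without layer 6 it was Wfs1 (r = 0.963), which encodes wolframin of the endoplasmic reticulum and stood at log2 11.04 in G30-Amygdala and 9.66 in layer 6. For Sla, Defb1 led over 14 groups (r = 0.904) and Ptcra over 13 (r = 0.939). For Trbv1, the 5 genes over 14 groups were Ppp1r1b (r = 0.899), Krt80, Otulin, Tle4 (r = 0.885) and Nxph3, and over 13 groups Gsn led (r = 0.926). The layer 6 arrays, for which Trbv1 was chosen, carry much of that likeness: without them, r was 0.538 for Ppp1r1b and 0.658 for Tle4. For Olfm3, Abcb9 led over 14 groups (r = 0.888) and Cyp4f16 over 13 (r = 0.901), and Glra4, a glycine receptor subunit gene, was in both sets of 5. These are the top of 9295 values each, over at most 14 points, and describe likeness only. By Spearman's rho, 1 of the 5 genes over 14 groups was shared for Rprm, 0 for Sla, 0 for Trbv1 and 2 for Olfm3.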

How the data were processed

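The authors deposited linear intensity values, 1 table of 22690 probe sets by 42 arrays, from 1 to 22818.24; their summary over probes and their scaling are not stated in the labels or files used here. Scan day, scan year and remarks came from the text record deposited for each array. Values were turned into log2(intensity + 16). After 64 control sets were removed, 20380 probe sets had 1 gene symbol in an annotation of 2016, and the brightest stood for each gene. Genes with a mean under the 25th percentile (log2 7.77) were not tested. One mean per group was fitted with limma 3.58.1 in R 4.3.3 (28 residual degrees of freedom, trended variances), and p-values were adjusted by Benjamini-Hochberg over 9295 genes. The procedure was tested on simulated data.

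The members and lists were chosen with earlier results of these data known. The 4 members were named whatever their values, from each list, up to 4 called genes with the largest difference, relatives of a member whatever their values, and for likeness, the 5 genes with the highest r. Sla2, Adgrl1 and Trbv13-2 are such relatives. Fezf2 in layer 6 and Sox5 in the YFPH amygdala were named so that each called direction is complete. They, Foxp2, Ptprc, Gfap and Slc1a3 were added after their values were seen. So were levels of Gad1, Crym, Fezf2, Zfpm2 and Zap70, and values that were not called. Alternatives were another scaling, filter, pseudocount (64) or probe set, blocks for replicate number, scan day and scan year, a Gapdh 3′ to 5′ covariate, the compared arrays only, and leaving out arrays. Scan year, the array of a new sorting method and the interaction of area and line were added after seeing the data. Replicate numbers did not pair the arrays: in 0 of 9 comparisons did all same-numbered arrays have r over 0.1.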

Additional observations from a re-analysis of the deposited data

Results flagged for a closer look

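The difference between amygdala and cingulate cortex was unlike in the YFPH and G30 lines for 2 of the 4 genes, by a term that was called for 11.7% of tested genes. For Rprm the interaction was -2.21 on the log2 scale, since the rise was 2.46 in YFPH and 4.67 in G30 neurons. For Trbv1 it was -1.27, with a difference of -1.22 in YFPH and of 0.05 in G30 neurons. The Trbv1 call by limma was lost without replicate 2 of YFPH-CingulateCortex (adjusted p = 0.0879) or with scan year as a block (0.118). The compared cells differ in class as well as in line, and the YFPH amygdala mice were older than the YFPH cingulate mice of stated age. In neither line did a scan day hold both amygdala and cingulate arrays. These factors cannot be told apart here.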

How the results depend on the processing

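Over the 13 comparisons without layer 6, all 7 calls of Rprm were kept in every alternative run, and so were the calls of Olfm3 among interneurons. Blocking by replicate number left the call of 75 of 75 results the same, for example with 967 genes called between YFPH hippocampus and cingulate cortex, and it changed no other call. Scan day could be fitted as a block in 3 comparisons only. The amygdala groups shared no scan year, so a block for scan year cannot test its effect between them. The cause of the changes below was not tested, except that leaving out arrays leaves fewer samples. Leaving out 1 array at a time gave 805 of 840 values the same reading.

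By setting, the changed values were these. Quantile normalization and median centring moved Sla between GIN and G42 cingulate cells to 0.48 (adjusted p = 0.108) and 0.50 (0.0879). A pseudocount of 64 gave layer 6 differences of 3.74 for Rprm and 2.15 for Olfm3. With scan day, Olfm3 between YFPH somatosensory and cingulate cortex was 1.67 (0.522). That comparison then called 25 genes, against 147, the G30 one 6 against 17, and area by line 24 against 43. With scan year, genes called were 1169 against 2332 between G30 amygdala and cingulate cortex, 144 against 1615 between amygdala groups, 1343 against 4821 between pyramidal groups and interneurons, 650 against 1086 for amygdala by line, and 575 against 2000 for layer 6. Olfm3 between amygdala groups was then -1.93 (0.264), Sla between classes -0.44 (0.145), Sla for amygdala by line -1.15 (0.044, now past the threshold), Trbv1 for the same term -1.25 (0.118), and Olfm3 in layer 6 2.57. With the Gapdh covariate, genes called were 515 between amygdala groups, 1035 (against 1706) for GIN hippocampus and cingulate cortex, 1542 (2446) for G42-LGN and 1328 (2735) for GIN and G42.

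Over 12 sorted groups, 3 of the 5 genes most like Rprm and 2 of those most like Sla were shared. Without the 2 arrays marked as abnormally amplified, Olfm3 between YFPH hippocampus and cingulate cortex was -1.16 (0.104), and 1024 genes were called between amygdala groups. Without the array of a new sorting method, Olfm3 was 1.27 (0.199) between YFPH somatosensory and cingulate cortex and 2.18 in layer 6. With the compared arrays only, Olfm3 was -1.28 (0.0791), 1.64 (0.102) and, past the threshold, -0.90 (0.0203) for YFPH hippocampus, YFPH somatosensory cortex and G30 amygdala against cingulate cortex, and Sla was 0.60 (0.0587) between GIN and G42. Genes called were then 566 (against 935), 52 (147), 878 for GIN hippocampus, 1 for G30 somatosensory cortex, 23 for area by line and 1331 for layer 6.

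On the other probe set, Sla lost its call between G30 amygdala and cingulate cortex, at -0.031 (0.837). There it was -0.24 (0.0547) between amygdala groups, 0.22 (0.0541) between GIN and G42, 0.0065 (0.935) in unsorted cortex and 0.21 in layer 6. On the second probe set of Olfm3, YFPH hippocampus against cingulate cortex was -1.09 (0.159) and layer 6 2.25. On the dimmest, that difference was -0.14 (0.843), YFPH somatosensory cortex 0.75 (0.347), YFPH amygdala -0.41 (0.597), between amygdala groups -0.51 (0.239), GIN hippocampus 1.41 (0.000935, now past the threshold) and layer 6 0.38.

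Leaving out 1 array at a time, Olfm3 ran from 2.18 to 2.42 in layer 6, from -2.01 to -1.31 for YFPH amygdala, from -1.64 to -0.95 for YFPH hippocampus and from 1.27 to 1.98 for YFPH somatosensory cortex, each against cingulate cortex but the first. Sla ran from 0.53 to 0.97 for G30 amygdala and from 0.35 to 0.74 between GIN and G42. Trbv1 ran from -1.31 to -0.83 for YFPH hippocampus and from -1.44 to -0.97 for amygdala by line. Genes called ran from 1258 to 2424 for layer 6, 8 to 34 for G30 somatosensory cortex, 1126 to 2017 for GIN hippocampus, 994 to 1472 between amygdala groups, 582 to 922 for YFPH hippocampus, 61 to 213 for YFPH somatosensory cortex and 27 to 63 for area by line.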

Other observations

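Ptprc, which encodes the leukocyte antigen CD45 and is on the T cell list, was singled out after its values were seen. It read 1588.8, 2282.5 and 2126 on the YFPH-Amygdala arrays (log2 10.96 ± 0.27, n = 3), between 32.9 and 54.5 on those of G30-Amygdala, and 250.6 on 1 YFPH-Hippocampus array against 38.7 and 36.8 on the others. On the layer 6 arrays it was at most 42.1. It lay under the filter on low means and was not tested.

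Interneuron genes were uneven among the G30-Amygdala arrays. Slc32a1, the vesicular GABA transporter gene, read 310.9, 1355.7 and 848.2 there, against 7832 to 8911 in G30-CingulateCortex. Rprm fell within 3588 to 4149 on the same arrays.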
